A study of Mus musculus with 36 samples.

Results

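Livers of male adult C57BL/6J mice that had eaten a quercetin diet for 12 weeks were compared with livers of mice killed when the feeding period began. The 24 arrays of these 2 groups, 12 mice each, were taken from 36 arrays in all. All probes of the array were used. All mice first ate a mild-high-fat diet with 30 energy % fat through 3 weeks of adaptation. The baseline group (t=0) was killed then, at 0 weeks. The quercetin group (HF-Q) went on with that diet plus 0.33% (w/w) quercetin, and the control group (HF) with the same diet alone, both for 12 weeks. Food was withheld from every mouse for at least 2 h before it was killed. The quercetin and the baseline mice therefore differed in quercetin, in weeks on the diet and in age, which cannot be told apart between these groups, so control values are given beside the main results.

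Quercetin is a plant flavonol of onions, apples and tea that liver and gut conjugate rapidly. Fatty acids are mostly broken down by β-oxidation, while ω-oxidation is a minor microsomal route in which CYP4A enzymes hydroxylate the far end of the chain, with electrons from cytochrome P450 oxidoreductase (Por), before alcohol and aldehyde dehydrogenases complete a dicarboxylic acid. The nuclear receptor PPARα drives Cyp4a and acyl-CoA thioesterase genes in mouse liver, and the constitutive androstane receptor (Car, gene Nr1i3) drives many drug-metabolising enzymes. Liver also carries a strong circadian clock, and it folds large amounts of secreted protein with the help of endoplasmic reticulum (ER) chaperones.

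Each array held Cy5-labelled RNA of a single mouse and a Cy3-labelled reference pool made from all samples. All levels below are log2 ratios of the mouse over the pool, and a log2 fold change is the difference between group means. Of 41174 probes, 18380 were expressed, meaning a mean signal over 2 times background in both channels. Quercetin replicate 2 stood apart, with raised signal in both channels. Its median Cy5 signal was 8.96 times its background, against 2.04 to 3.24 times on the other 35 arrays. In Cy5, 96.7% of its probes were well above background, against 56.4% to 67.4% on the others. In Cy3, the reference pool, its signal was 3.36 times background, and 87.9% of probes were well above it, against 48.5% to 57.0%. Control replicate 5 carried exocrine pancreas transcripts at a mean log2 ratio of 4.93, against -5.19 to -4.07 on the other 35. Its median correlation with its own group was -0.27, and the other arrays had 0.47 or more. Calls of the named genes and gene lists were therefore also computed without quercetin replicate 2 and, where the control group entered, without control replicate 5.

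The quercetin livers differed from baseline at 3203 probes (adjusted p under 0.05, limma), 17.4% of those expressed. Of these, 1423 were higher (7.74%) and 1780 lower (9.68%). Most differences were small. The median size over called probes was 0.22 log2, 141 exceeded 1.5-fold and 20 exceeded 2-fold, 14 of them higher. Without quercetin replicate 2 there were 2954 calls (16.1%), 1403 higher (7.63%) and 1551 lower (8.44%), and 2797 of the original 3203 were among them, all with the sign kept. The expressed probes stayed the same and were chosen with that bright array included, so its part in that choice was not removed. The balance of directions depended on the processing. Higher probes made up 44.4% of calls here, 50.7% with median centring and 55.5% with the deposited normalised values, which were tested over 21781 probes. Leaving out quercetin replicate 2 gave 47.5%, and doing so together with median centring gave 75.9%. Counted once per gene, by its brightest probe, 2056 of 11557 genes were called (17.8%), 963 higher (8.33%) and 1093 lower (9.46%), with a median log2 fold change of -0.00 over all genes. Counts of list members are read against these shares. Against the control group, 560 probes differed (3.05%), or 253 with the slide as a block and 488 without quercetin replicate 2. Control and baseline differed at 4580 probes (24.9%). These comparisons share arrays with each other, so their values stand side by side and are not independent.

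For a small set of genes the quercetin and baseline mice did not overlap. The lowest quercetin mouse exceeded the highest baseline mouse for 25 genes (0.216%), and the reverse held for 11 (0.0952%). Serpina7, which encodes thyroxine-binding globulin, ranged from -1.48 to -0.56 in baseline livers (median -0.96) and from -0.09 to 0.84 in quercetin livers (median 0.39). All 12 quercetin mice were above all 12 baseline mice, a 2.56-fold rise (log2 1.36 ± 0.12 SE, adjusted p = 3.1e-08). Its probe lies at chrX:134427673-134428327 in the mm8 coordinates of the array files. Control livers were 1.15 above baseline, and quercetin and control were not called apart (0.21, adjusted p = 0.34).

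F11, which encodes coagulation factor XI, had the smallest adjusted p of the genes named here. Baseline livers lay between 0.39 and 0.63 (median 0.48), and quercetin livers between -0.68 and -0.14 (median -0.52). No mouse of one group reached the other, and quercetin was lower on all 9 slides, by 0.74 to 1.17. F11 fell by 0.97 ± 0.06 (1.96-fold, adjusted p = 1.4e-11; probe at chr8:46740216-46740275, mm8). Control livers fell by 0.71, and quercetin livers were lower than control by a further -0.26 (adjusted p = 0.023).

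Irx1, a homeobox transcription factor, and Hspb1, a small heat shock protein, were also higher in every quercetin mouse than in any baseline mouse. Irx1 ran from -1.07 to -0.17 at baseline (median -0.57) and from 0.21 to 0.72 with quercetin (median 0.44), a rise of 1.06 ± 0.09. Hspb1 ran from -1.24 to -0.29 (median -0.66) and from 0.06 to 0.57 (median 0.34), a rise of 1.01 ± 0.08. Controls were 0.92 above baseline for each. Among lower genes, Slc39a4, a zinc importer, went from a baseline range of 0.08 to 0.85 (median 0.64) to a quercetin range of -0.98 to 0.18 (median -0.45). A single quercetin mouse kept these ranges from parting. Slc39a4 fell by 1.06 ± 0.10 in quercetin and by 1.32 in control livers.

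**Figure D1:**
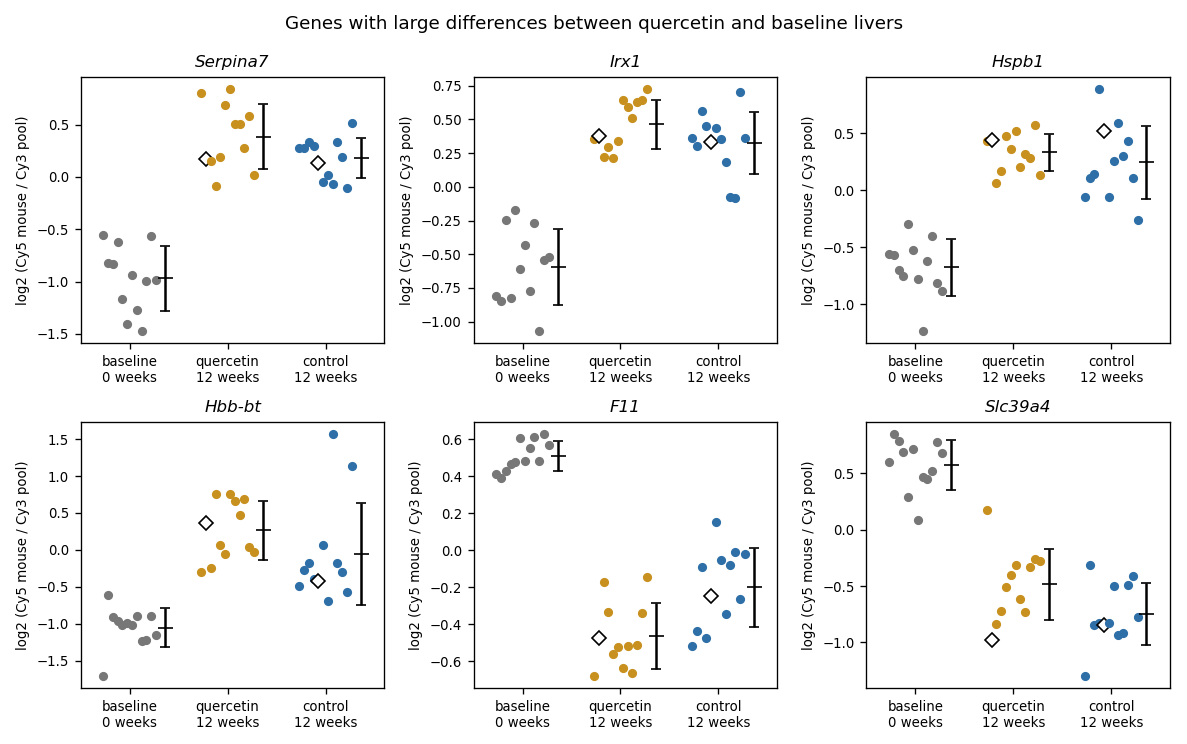
The log2 ratio of each mouse over the reference pool for 6 genes, by group, with bars for mean ± SD (12 mice a group) and open diamonds for quercetin replicate 2 and control replicate 5. The quercetin mice lie wholly above baseline for Serpina7, Irx1, Hspb1 and Hbb-bt and wholly below it for F11, and control mice lie on the quercetin side of baseline in most panels.

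The largest rise among the named genes was in ω-oxidation. Cyp4a14, a fatty acid ω-hydroxylase, spanned -4.61 to -0.16 in baseline livers (median -1.46) and -0.88 to 2.91 in quercetin livers (median 0.70). Its groups overlapped, with 9 of 12 quercetin mice above the highest baseline mouse. The rise was 5.80-fold (2.54 ± 0.47, adjusted p = 0.00067; probe at chr4:114984241-114984300, mm8), and 2.52 without quercetin replicate 2. Control livers (-3.21 to -0.35, median -1.96) differed from baseline by -0.15 (adjusted p = 0.82), and quercetin exceeded control by 2.69 (adjusted p = 0.0004).

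The close paralogs gave the same order of groups. Cyp4a31, whose probe also matches Cyp4a10, ranged from -2.11 to 0.05 at baseline (median -0.64) and from -0.53 to 2.34 with quercetin (median 0.30), a rise of 1.35 ± 0.28 with 11 quercetin mice above every baseline mouse. Cyp4a10 ranged from -1.66 to -0.02 (median -0.55) and from -0.67 to 1.66 (median 0.17), a rise of 0.95 ± 0.22, called by 2 of its 3 probes. Such near-identical genes may share signal, so these 3 are not independent readings. Quercetin exceeded control by 1.56 for Cyp4a31 and 1.30 for Cyp4a10 (adjusted p = 0.0012 and 0.00066), and neither was called between control and baseline.

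Later steps of the route moved less. Aldh3a2, the fatty aldehyde dehydrogenase, rose by 0.57 ± 0.10 (adjusted p = 0.00034) and exceeded control by 0.39 (adjusted p = 0.017). Adh4, an alcohol dehydrogenase, rose by 0.23 ± 0.08, and lost its call without quercetin replicate 2 (adjusted p = 0.075). Of 16 measured members of the ω-oxidation list, 5 rose and 3 fell against baseline, with a median of -0.01, where 8.33% of all genes rose and 9.46% fell. The 3 that fell were Cyp4v3, Cyp4f18 and Cyp4f13, by 0.27, 0.22 and 0.14, all P450 enzymes of other Cyp4 branches. Their calls depended on the normalisation: 0 members fell with median centring or with Cy5 alone, and 1 with the deposited normalised values, while 4 rose under each of these. Against control 5 members were higher and 0 lower, also without either array that stood apart, where 1.59% of all genes were higher and 1.38% lower.

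Por itself was not called against baseline. Its baseline mice ran from -0.76 to 0.76 (median -0.10), its quercetin mice from -0.44 to 1.34 (median 0.25), and its control mice from -1.14 to -0.24 (median -0.77). The quercetin mice thus overlapped widely with baseline, while 11 of 12 lay above every control mouse. The difference from baseline was 0.35 ± 0.18 (adjusted p = 0.17), that between quercetin and control 0.99 (adjusted p = 0.00058), and control had fallen by 0.64 from baseline (adjusted p = 0.0043). Nr1i3, the gene of Car, had a like order of values, 0.17 (adjusted p = 0.12) against baseline, 0.47 (adjusted p = 0.00028) against control, and -0.30 (adjusted p = 0.0026) from baseline to control.

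Of 11 measured Acot genes, which encode acyl-CoA thioesterases that release free fatty acids from their CoA esters, 3 rose and 1 fell, Acot12 (-0.29), a family counted after its values were seen. Acot4 ran from -0.59 to 0.37 at baseline (median -0.31) and from -0.13 to 0.80 with quercetin (median 0.45), a rise of 0.58 ± 0.12 (adjusted p = 0.0014). Acot1 rose by 0.62 ± 0.17 and Acot3 by 0.60 ± 0.16, and both lost their call with Cy5 alone (adjusted p = 0.066 and 0.064). The Acot3 probe was dim, well above background on 9 of 12 baseline arrays, and its value ran from 0.41 to 1.83 over the alternatives. All 3 exceeded control, by 0.71 for Acot4, 0.82 for Acot1 and 0.84 for Acot3, and none was called between control and baseline. They were the only members of the PPARα target list called higher, 3 of 20 measured where 8.33% of all genes rose, while the intestinal-type fatty acid-binding protein Fabp2 fell by 0.27; the list's median was 0.12. Other PPARα targets were not called against baseline, among them Pdk4 (0.13) and Angptl4 (-0.27). Against control 5 of the 20 were higher and 0 lower, also without either array that stood apart, where 1.59% of all genes were higher. Control rose at 2 and fell at 4 of them against baseline, and at 2 and 2 without control replicate 5.

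Acnat2, an acyltransferase that conjugates fatty acids in peroxisomes, lay between -1.43 and 0.25 at baseline (median -0.51) and between -0.09 and 1.42 with quercetin (median 0.61). It rose by 1.18 ± 0.18 (2.27-fold, adjusted p = 8.4e-05), against 0.53 in control, and quercetin exceeded control by 0.65 (adjusted p = 0.026). In peroxisomal β-oxidation 2 of 17 genes rose, the thiolase Acaa1b by 0.47 and carnitine acetyltransferase Crat by 0.31, and the branched-chain oxidase Acox2 fell by 0.28. In mitochondrial β-oxidation 2 of 17 rose and 1 fell, and the members ran from -0.19 to 0.16. These counts lie near the shares over all genes, 8.33% higher and 9.46% lower.

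**Figure D2:**
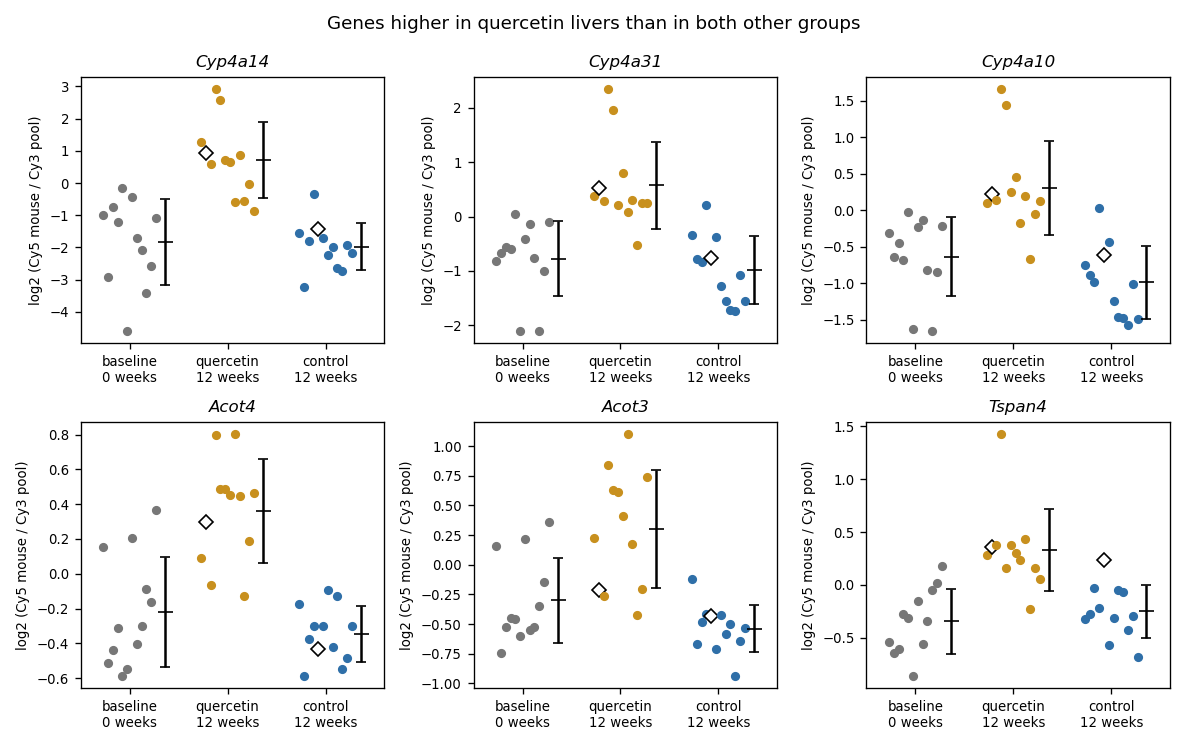
The log2 ratio of each mouse for 6 genes that were higher in quercetin livers than in both other groups, drawn as in the plot of genes with large differences (mean ± SD, 12 mice a group; diamonds are quercetin replicate 2 and control replicate 5). Baseline and control mice overlap, and the quercetin mean is above both, by 2.54 and 2.69 log2 for Cyp4a14.

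Few lipid synthesis genes were called. Of 25 fatty acid synthesis and storage genes 0 rose and 2 fell by limma (0 and 4 at an unadjusted p under 0.05), acetyl-CoA synthetase Acss2 by 0.58 ± 0.17 and the triglyceride-forming enzyme Dgat1 by 0.17, where 8.33% of all genes rose and 9.46% fell. Fatty acid synthase Fasn stood at 0.55 with an adjusted p of 0.18, its mice ranging from -1.32 to 0.91 at baseline and from -1.19 to 1.39 with quercetin. In the control group 6 of the 25 rose and 1 fell against baseline, where 14.2% of all genes rose and 11.2% fell. Of 25 cholesterol genes, Insig2, an ER protein that holds back sterol regulatory factors, fell by 0.66 ± 0.17 (adjusted p = 0.0087), from a baseline range of -0.38 to 1.23 (median 0.32) to -0.91 to 0.36 (median -0.26). The ranges overlapped, with 4 quercetin mice below every baseline mouse. Insig2 was also lower than in control, by -0.77 (adjusted p = 0.0055), and control and baseline were not called apart (0.11). Of 19 bile acid genes, the conjugating enzyme Baat rose by 0.16 and Hsd3b7, of bile acid synthesis, fell by 0.60. Cyp7a1, the rate-limiting enzyme of that synthesis, was 0.67 above baseline without a call (adjusted p = 0.10) and 1.07 above control (adjusted p = 0.026).

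Drug-metabolising enzymes were called in both directions. Of 24 xenobiotic P450 genes, 6 rose and 5 fell, with a median of -0.01, where 8.33% of all genes rose and 9.46% fell. Over the alternatives 5 to 6 rose and 2 to 7 fell. Cyp3a11 rose by 0.60, Cyp3a16 by 0.58, and Cyp3a41a and Cyp3a44 by 0.56 each, close paralogs that the probes may not separate, and control rose by 0.51 to 0.61. Cyp2c37 rose by 0.45 and Cyp2c39 by 0.31, and both exceeded control, by 0.38 and 0.37. Cyp2a12 fell by 0.50, Cyp2c70 by 0.49 and Cyp2f2 by 0.38. Of 34 conjugation and antioxidant genes 10 rose and 4 fell, with a median of 0.10, and 5 to 14 rose and 3 to 5 fell over the alternatives. The glutathione transferase Gsta2, whose probe also matches Gsta1, rose by 0.42 ± 0.09 and exceeded control by 0.38, and the epoxide hydrolase Ephx1 rose by 0.38 and exceeded control by 0.30. The transferase Ugt2b1 fell by 0.77 ± 0.12 and the sulfotransferase Sult1b1 by 0.62 ± 0.12, and both fell in control too, by 0.60 and 0.74.

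Protein folding genes formed the list with the most calls in a single direction. Of 34 heat shock and ER stress genes, 19 rose and 0 fell by limma (22 and 1 at an unadjusted p under 0.05), with a median of 0.24, where 8.33% of all genes rose and their median was -0.00. Without quercetin replicate 2, 17 rose, where 8.12% of all genes rose and 8.32% fell. Control rose at 21 and fell at 1 with a median of 0.37, and quercetin against control was called higher at 0 and lower at 1, the stress-induced factor Ddit3 (-0.42), a call lost without control replicate 5 (adjusted p = 0.053). Over the 18 alternatives 14 to 19 members rose. ER chaperones and their helpers included Creld2 (0.94), Hyou1 (0.84), Sdf2l1 (0.84), Hspa5 (0.65), Manf (0.58), Hsp90b1 (0.51) and Pdia4 (0.49). Cytosolic chaperones included Hspb1 (1.01), Hsp90aa1 (0.83), Hspa1a (0.65), Hspa8 (0.49) and Hsph1 (0.44).

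Hyou1 ran from -1.27 to 0.00 at baseline (median -0.53) and from -0.11 to 0.59 with quercetin (median 0.32), so that 10 quercetin mice exceeded every baseline mouse (0.84 ± 0.12, adjusted p = 3.9e-05). Derl3, which helps draw misfolded proteins out of the ER and was not on the list, ran from -2.38 to 0.35 (median -1.09) and from -1.20 to 0.95 (median 0.36), a 2.62-fold rise of 1.39 ± 0.27 (adjusted p = 0.00099). Control was 1.29 above baseline with the widest spread of the 3 groups, -2.51 to 1.69. Not all stress genes moved: Xbp1 stood at -0.09, Atf4 at 0.06, Calr at 0.01, and Trib3 at -0.37, none of them called.

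Promoters of these genes are shown because several carry the ER stress response element, the motif by which unfolded-protein sensors are known to raise chaperone genes. This element and the heat shock element were not among the motifs first planned, so their shares are descriptive only. RefSeq promoters (GRCm38.p6, from 250 bases before to 50 after the start) were searched on both strands for this element, CCAAT and CCACG with 9 bases of any kind between them. It stood in 0.119% of all 32851 promoters. Genes were counted where any of their promoters held it, a different unit from the share of promoters. It stood in 0.206% of the 9228 measured genes with a promoter, in 8 of 768 that rose (1.04%) and in 1 of 883 that fell (0.113%). Of the 14 risen list members with a promoter, 5 held it, and so did 7 of the 28 measured members with a promoter. Capitals mark the motif on the strand of the gene, where Creld2, Derl3 and Hsp90b1 carry its reverse complement. The windows lie at chr2:34771995-34772073 (+), chr15:88819490-88819568 (+), chr10:75893212-75893290 (+) and chr10:86705503-86705581 (-), in the order printed.
Hspa5: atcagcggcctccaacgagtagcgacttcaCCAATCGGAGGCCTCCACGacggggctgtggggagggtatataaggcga
Creld2: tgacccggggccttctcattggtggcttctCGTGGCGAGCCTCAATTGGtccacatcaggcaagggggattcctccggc
Derl3: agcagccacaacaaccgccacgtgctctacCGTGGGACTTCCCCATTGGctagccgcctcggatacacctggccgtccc
Hsp90b1: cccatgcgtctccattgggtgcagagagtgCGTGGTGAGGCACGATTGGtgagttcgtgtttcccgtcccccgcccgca
The heat shock element, GAA, TTC and GAA with 2 free bases after each of the first pair, stood in 0.603% of all promoters and in 1 of the 14 risen members. Of the 28 measured members with a promoter, 3 held it. A match describes letters only, and binding was not measured.

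Genes of amino acid breakdown were called in a single direction. Of 38 amino acid and urea genes, 0 rose and 18 fell by limma (0 and 19 at an unadjusted p under 0.05), with a median of -0.21, where 9.46% of all genes fell. Without quercetin replicate 2, 18 fell as well, and 7 to 18 fell over the alternatives. Bhmt, which remethylates homocysteine from betaine and whose probe also matches Bhmt2, ran from -0.27 to 1.04 at baseline (median 0.45) and from -1.99 to 0.42 with quercetin (median -0.99). A single quercetin mouse reached the baseline range, and Bhmt fell by 1.36 ± 0.20 (2.57-fold, adjusted p = 4.9e-05). Of the urea cycle, Cps1 fell by 0.47 ± 0.08, Arg1 by 0.39, Ass1 by 0.38 and the ornithine carrier Slc25a15 by 0.39, while Otc (-0.03) and Asl (-0.11) were not called. Got1, aspartate aminotransferase, fell by 0.70, histidine lyase Hal by 0.56 and proline dehydrogenase Prodh by 0.49. Sds, serine dehydratase, fell by 0.73 ± 0.14.

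Control livers fell at 26 of the 38 (median -0.30), with 3 members higher (2 without either array that stood apart) and 1 lower in quercetin than in control. The lower one was Gldc, of the glycine cleavage system, which fell by 0.50 ± 0.15 in quercetin livers, stood at 0.05 in control livers without a call, and differed between them by -0.55 (adjusted p = 0.016).

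**Figure D3:**
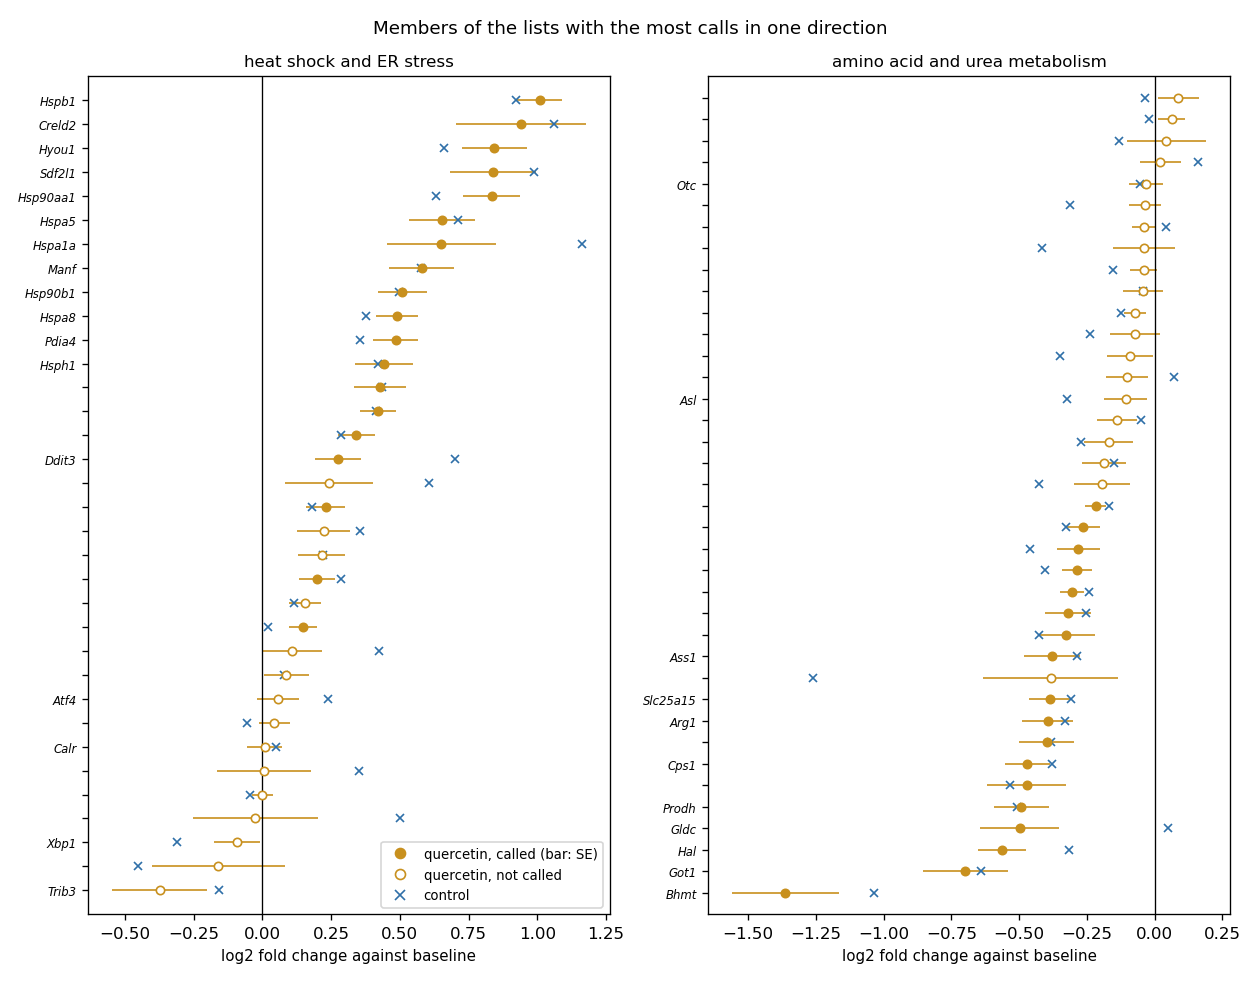
Log2 fold change against baseline for each measured member of the heat shock and ER stress list (34 genes) and the amino acid and urea list (38 genes). Circles are quercetin minus baseline with SE bars, filled where called (19 higher on the left, 18 lower on the right), and crosses are control minus baseline, which share the baseline arrays. Genes described in the text are named on the vertical axis.

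Other large falls were in genes of varied roles. Dct, a melanin enzyme, ran from 0.20 to 1.58 at baseline (median 0.66) and from -1.93 to 0.36 with quercetin (median -0.68), and fell 3.00-fold (log2 -1.59 ± 0.24). Selenbp2, a selenium-binding protein whose probe also matches Selenbp1, fell 2.83-fold, with 11 of 12 quercetin mice below every baseline mouse. The organic anion transporter Slc22a7 fell by 1.00, the adhesion receptor Adgrv1 by 0.84, the serine protease inhibitor Serpina3k by 0.87, the nuclear long non-coding RNA Neat1 by 0.89 and the lectin-like Clec2h by 0.89. In control livers these falls were 1.44 for Dct, 1.13 for Selenbp2, 0.58 for Slc22a7, 0.58 for Adgrv1, 0.71 for Serpina3k, 0.79 for Neat1 and 1.05 for Clec2h, and no quercetin-control difference was called for any of them.

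Of the named genes called against baseline, 29 had moved further in the same direction in control than in quercetin livers, and for 3 of them, Gpcpd1, Ntrk2 and Nedd4, the difference between quercetin and control was called. Gpcpd1, which cleaves glycerophosphocholine, ran from 0.01 to 1.33 at baseline (median 0.69) and from -1.21 to 1.15 with quercetin (median -0.38). It fell by 0.90 ± 0.24 in quercetin and by 1.78 in control livers, a difference of 0.88 (adjusted p = 0.022). Ntrk2, a neurotrophin receptor, rose by 0.88 ± 0.18 in quercetin and by 1.57 in control livers, a difference of -0.70 (adjusted p = 0.032) that lost its call without quercetin replicate 2 (adjusted p = 0.0503). Nedd4, a ubiquitin ligase, fell by 0.24 and by 0.52, a difference of 0.29 (adjusted p = 0.026).

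Genes known to differ between male and female mouse liver were unevenly called. Of 21 male-biased genes 1 rose (Susd4, 0.62) and 9 fell, with a median of -0.29, where 8.33% of all genes rose and 9.46% fell. Those that fell included the major urinary protein Mup1 (-0.83, a probe shared with Mup2 and Mup5), the scavenger receptor Scara5 (-0.67) and the steroid dehydrogenase Hsd3b5 (-0.56). Of 15 female-biased genes 5 rose and 2 fell, with a median of 0.04, and 3 of the risen 5 were the Cyp3a paralogs above. Over the alternatives 5 to 9 male-biased genes fell. Control rose at 1 and fell at 8 of the male-biased genes, where 14.2% of all genes rose and 11.2% fell, and at 2 and 6 without control replicate 5. Their median in control was -0.10. Control rose at 4 and fell at 4 of the female-biased genes, with a median of -0.22. Against control, quercetin was higher at 0 and lower at 3 male-biased genes (2 without either array that stood apart), and higher at 2 and lower at 1 female-biased gene. Of all genes, 1.59% were higher and 1.38% lower.

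Ribosomal, respiratory chain and immune lists follow, where 8.33% of all genes rose and 9.46% fell against baseline. Of 52 ribosomal protein genes 10 rose and 0 fell by limma (25 and 0 at an unadjusted p under 0.05), led by Rps14 (0.32), with a median of 0.10, and over the alternatives 1 to 29 rose. Control rose at 27 of the 52 and fell at 0. Of 51 respiratory chain genes 0 rose and 12 fell by limma (1 and 17 at an unadjusted p under 0.05), led by Ndufb5 (-0.27), but their median of -0.03 ran from -0.05 to 0.04 over the alternatives and so changed sign, and 0 to 4 members rose and 0 to 18 fell among them. Control rose at 4 and fell at 7. Of 4 immunoglobulin genes 3 rose, Igh (1.03), Iglv1 (0.44) and Jchain (0.41). Control rose at all 4, by 1.09, 0.63 and 0.60 for these and by 0.57 for Ighm, the gene among them that was lower in quercetin than in control (-0.52, adjusted p = 0.025). Of 28 interferon-stimulated genes 6 rose, among them the GTPase Igtp (0.85) and Irf1 (0.47), and 2 fell. Over the alternatives 2 to 8 rose and 0 to 2 fell. In the fit of all 36 arrays 3 rose and 2 fell, and control rose at 3 and fell at 1. Igtp lost its call in that fit (limma, adjusted p = 0.085). Of 35 acute phase and complement genes 0 rose and 4 fell by limma (3 and 8 at an unadjusted p under 0.05), among them C9 (-0.43), with 0 to 4 higher and 2 to 9 lower over the alternatives. Control rose at 1 and fell at 6. Collagen and matrix genes gave 0 calls by limma among 25, with 2 higher and 3 lower at an unadjusted p under 0.05, and 1 higher when quercetin replicate 2 was left out.

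Growth, protein turnover and antigen presentation genes gave few calls. Of 31 proteasome genes 4 rose, by 0.18 or less, where 8.33% of all genes rose. Over the alternatives 0 to 8 rose, and control rose at 11. Of 18 cell cycle genes 3 rose, the cyclin Ccnd1 by 0.51 and the replication helicase subunits Mcm4 and Mcm6 by 0.20 and 0.18, with 0 to 5 over the alternatives, and control rose at 7 and fell at 1. Of 18 growth hormone and IGF genes 2 rose, the binding protein Igfbp2 by 0.43 and the signalling inhibitor Socs1 by 0.32, and 3 fell, among them Igfals (-0.19). Of 25 glucose genes Igfbp2 rose, and Sds and the glycogen phosphorylase Pygl (-0.29) fell. Of 32 chromatin and RNA processing genes 5 fell, led by Neat1, where 9.46% of all genes fell. Of 23 antigen presentation genes 1 rose, the immunoproteasome subunit Psmb10 (0.26). Of the 23, 21 were above 0 and 7 were higher at an unadjusted p under 0.05. The count was 12 with array weights and 0 to 2 under the other alternatives, and control rose at 6.

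Blood and immune markers moved with the groups and are given as values. The haemoglobin genes Hbb-bt (1.32 ± 0.13), Hba-a2 (1.18 ± 0.13) and Hba-a1 (1.15 ± 0.12, a probe that also matches Hba-a2) rose. All 4 Hbb-bt probes were called. Control rose by 0.99, 0.88 and 0.85 for these genes in that order, and quercetin and control were not called apart for any of them. The baseline range of Hbb-bt was -1.71 to -0.60 (median -1.01) and the quercetin range -0.31 to 0.76 (median 0.22), without overlap. The erythroid enzyme Alas2 fell by 0.27. No expressed probe was matched to the symbols of the other 6 of 8 erythroid markers, which include Hbb-b1 and Hbb-b2. A missing match and a dim signal were not told apart. The neutrophil marker S100a9 rose by 0.63, as in control (0.63), and no expressed probe was matched to its list mates. Of 11 macrophage markers Aif1 alone was called (0.42, and 0.54 in control), while all 11 stood above 0, with a median of 0.24 (0.28 in control), and 5 were higher at an unadjusted p under 0.05. In whole liver, more cells of a type and more RNA per cell cannot be told apart. Of 9 hepatocyte markers Apoa2 rose by 0.32 and 4 fell by 0.17 to 0.47 (1 and 4 in control as well), while Alb stood at -0.01. Markers of sinusoidal endothelium (10 measured), stellate cells (10), cholangiocytes (5), T and NK cells (4), adipocytes (2) and exocrine pancreas (10) had 0 calls by limma, and at an unadjusted p under 0.05 they had 1, 0, 1, 1, 0 and 1. Of 4 measured B and plasma cell markers Jchain rose, and the lone measured skeletal muscle marker, Mylpf, rose by 0.18. The part of these cells in the other results was not tested.

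Clock genes were called more often between quercetin and control than between quercetin and baseline, and control also differed from baseline. Of 11 genes that peak around dusk 1 rose against baseline, the tetraspanin Tspan4 (0.67 ± 0.13, also 0.58 above control), where 8.33% of all genes rose. Against control 5 were higher, 4 without quercetin replicate 2 and 6 without control replicate 5, where 1.59% of all genes were higher. Dbp, a clock-driven transcription factor, ran from -1.97 to 0.70 at baseline (median 0.15), from -0.75 to 0.61 with quercetin (median 0.20) and from -1.46 to 0.15 in control (median -0.96). It differed from baseline by 0.49 (adjusted p = 0.24) and from control by 0.92 (adjusted p = 0.049, and 0.066 without quercetin replicate 2). Usp2, a clock-driven deubiquitinase, was 0.70 above baseline (adjusted p = 0.14) and 1.42 above control (adjusted p = 0.0088). Arntl, the core activator that peaks near dawn, ran from -1.02 to 1.03, from -1.06 to 0.16 and from -0.36 to 0.84 in baseline, quercetin and control livers. It differed by -0.35 from baseline (adjusted p = 0.25) and by -0.87 from control (adjusted p = 0.0095), and Per2 and Nr1d1 were called in neither comparison. Of 5 genes that peak around dawn, limma called 0 against baseline (0 at an unadjusted p under 0.05), and against control 1 higher and 3 lower, where 1.38% of all genes were lower. Between control and baseline, 0 dusk genes were higher and 2 lower, and 0 and 4 without control replicate 5. For the dawn genes these counts were 2 higher and 1 lower, and 4 and 1 without that array. Of all genes, 14.2% were higher and 11.2% lower in control than at baseline.

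The baseline mice did not form one cluster for these genes. Baseline replicates 2, 3, 4 and 6 lay below every quercetin mouse for Dbp and above every quercetin mouse for Arntl, and for Usp2 and Per2 replicate 5 joined them below. Chka, choline kinase, also placed replicates 2, 3, 4 and 6 above every quercetin mouse, and stood at -0.36 against baseline (adjusted p = 0.061) and -0.71 against control (adjusted p = 0.0026). The time of day at which mice were killed was not given in the sources used here, and its part was not tested. Coq10b, a coenzyme Q-binding protein, was 0.31 above baseline (limma, adjusted p = 0.32) and 0.89 above control (limma, adjusted p = 0.0095). For Coq10b, baseline replicates 2, 4 and 6 lay below every quercetin mouse and replicate 11 above. For Por, baseline replicates 2, 3 and 4 lay below every quercetin mouse and none above.

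The Coq10b promoter is shown because it holds both clock motifs searched, the E-box CACGTG and the D-box TTATGTAA (here as its reverse complement). The E-box stood in 7.15% of all promoters and the D-box in 0.938%. The other shares count genes with the motif in any of their promoters, a different unit from the share of promoters. Counted so, the E-box stood in 11.7% of measured genes, 14.2% of genes that rose and 10.7% of genes that fell. For the D-box these shares were 0.704%, 0.521% and 1.02%. The PPARα-type element, AGGTCA repeated after 1 free base, stood in 0.0396% of all promoters and in none of the genes called in either direction. Capitals mark the motif, with the windows at chr1:55052662-55052727 (+) and chr1:55052578-55052645 (+).
Coq10b, E-box: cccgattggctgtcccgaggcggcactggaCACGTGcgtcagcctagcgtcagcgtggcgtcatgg
Coq10b, D-box: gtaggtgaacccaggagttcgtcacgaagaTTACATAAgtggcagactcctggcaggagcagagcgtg

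**Figure D4:**
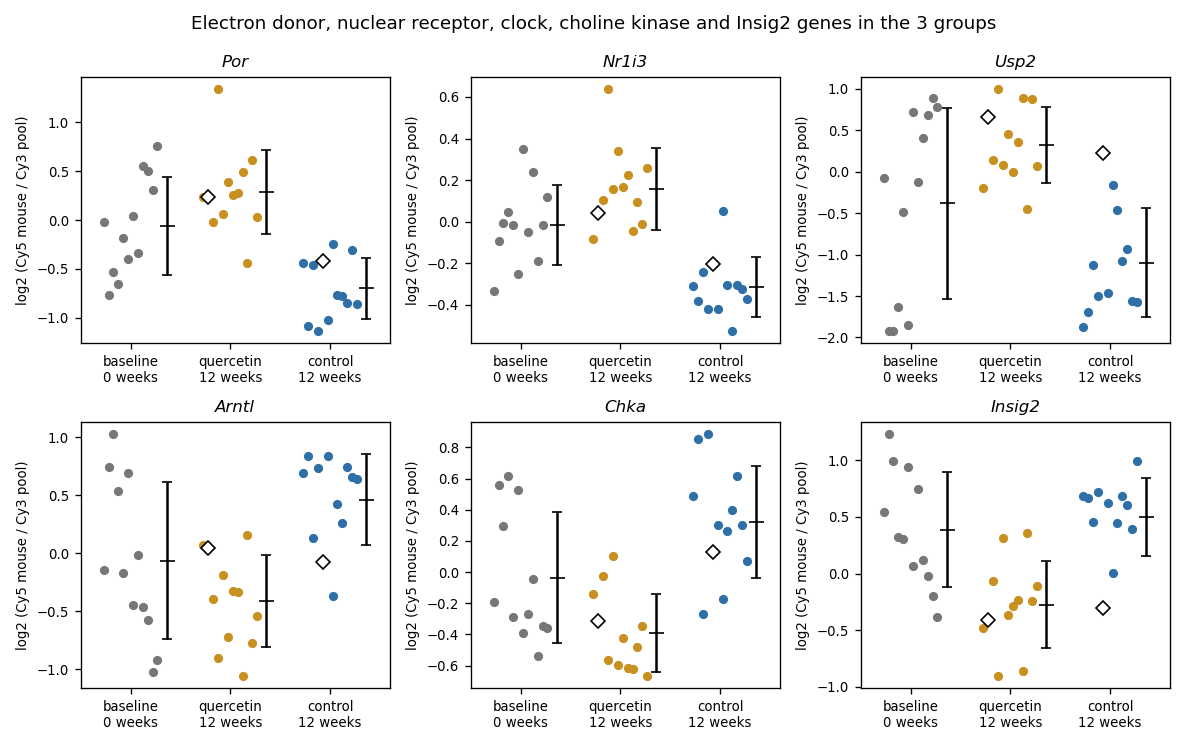
The log2 ratio of each mouse for Por, Nr1i3, Usp2, Arntl, Chka and Insig2, drawn as in the other plots by mouse (mean ± SD, 12 mice a group). The quercetin mean lies nearer the baseline mean than the control mean does for Por and Nr1i3, the baseline mice are split for Usp2, Arntl and Chka, and for Insig2 the quercetin mice lie lowest.

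Of 89 genes named by rule, 79 were called against baseline. All but the genes of prior interest were named because they were called in this comparison. The count of 79 was therefore largely set by the rule. Of these 79, 78 were also called without quercetin replicate 2, as were 2797 of all 3203 called probes. The rule favoured large called changes, and the other arrays were the same, so the 78 are no independent check. Of the 89, 23 were called between quercetin and control (2.97% of all genes), all 23 also without control replicate 5 (2.93%). The named genes include those that the paper listed as most regulated between these 2 groups, on these arrays. Their share therefore cannot be weighed against that of all genes. Without quercetin replicate 2, 20 of the 23 were called, the exceptions being Dbp, Ntrk2 and Hsd3b7.

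**Figure D5:**
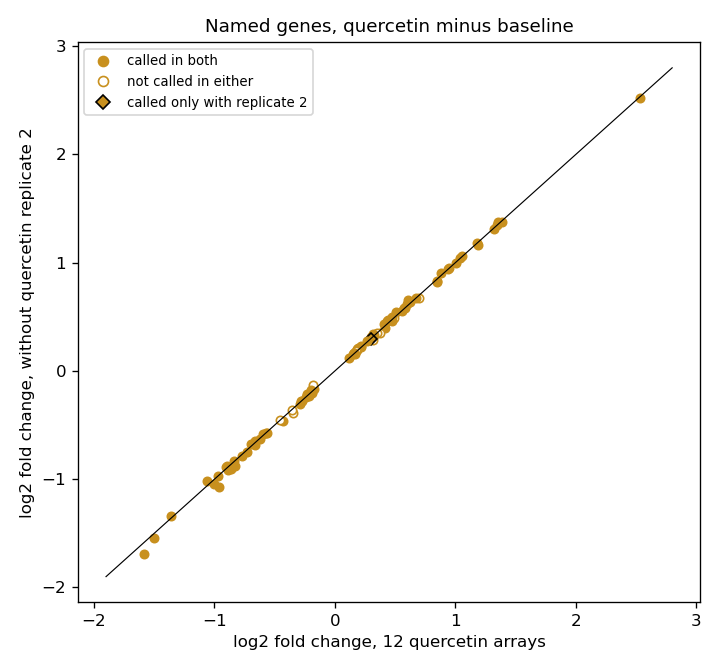
Log2 fold change of quercetin minus baseline for the 89 named genes with all 12 quercetin arrays (horizontal) and without quercetin replicate 2 (vertical), with the line of equal values. Points lie close to the line, and a single gene is called only with that replicate.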

How the data were processed

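Liver RNA was labelled and hybridised to Agilent 4x44K whole-mouse arrays. The intensities used were Feature Extraction median spot signals and median local backgrounds (version 10.5.1.1 per the labels). The deposited log2 values of the authors' own normalisation, of unstated scale, served as an alternative. Each array's intensities were background-corrected (limma 3.58.1, normexp, offset 50), loess-normalised and averaged per probe. On each array 0 to 24 spots more than 50 below their local background were left out of the normexp fit, since they compressed the ratios of some arrays; this was seen in the spread of arrays, and the fit on all spots is an alternative. Probes over 2 times background in both channels were tested with lmFit and eBayes in R 4.3.3 (Benjamini-Hochberg, adjusted p under 0.05) on the 24 arrays, and the control comparisons on 36 arrays. Symbols came from accession or name matches (33116 of 41174 probes). Named genes were the 10 largest called changes each way, the 3 largest called members of each list and 15 genes of prior interest. The 15 included the genes that the paper listed as most regulated between quercetin and control. Other members named were chosen after their values were seen. Members and lists were chosen with earlier results of these data known. Replicates are separate mice per the labels; replicate numbers tied no mice together. Each slide held quercetin and baseline arrays. A few measured genes are not reported here by name.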

Additional observations from a re-analysis of the deposited data

How the results depend on the processing

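Most named genes were chosen for their call against baseline. Of the 79 called, 41 were called under each of the 18 alternatives that measured them, and 88 of 89 kept their sign. The exception was Etfa, at -0.0076 (adjusted p = 0.96, limma) with the Cy5 channel alone. Normalisation moved the counts most: median centring gave 1045 called probes (530 higher, 515 lower), and 2264 higher with 718 lower when quercetin replicate 2 was also left out. Cy5 alone with quantile normalisation gave 1186 (444 higher, 742 lower). Array weights gave the largest count, 4478 (2130 higher, 2348 lower). The deposited normalised values gave 1154 lower. The cause was not tested. Leaving out each array in turn, an alternative chosen after seeing the data except for quercetin replicate 2, gave 2552 to 3743 called probes, 1129 to 1798 higher and 1423 to 2023 lower; for quercetin against control the slide as a block gave 253, and leaving out quercetin replicate 2 or control replicate 5 gave 488 and 549. Without control replicate 5, control against baseline gave 4387. Fitting normexp on all spots, also added later, gave 3118. The values of single genes and lists for quercetin against control without either array were likewise added after seeing the data. Mice of equal replicate number did not deviate together, so the numbers give no pairing (median correlation -0.01, range -0.19 to 0.14, with 1 of 12 pairs above 0.1), and the replicate block gave 2717 calls. A reading of 12 mice a group bounds the precision, and genes near background or matched by shared probes are less certain.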
